A study of Homo sapiens with 6 samples.

Results

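Tumour cells secrete chemokines, and 10 chemokine genes of PC-3 prostate cancer cells were followed here after depletion of CdGAP, a GTPase-activating protein for Rac1 and Cdc42 that is encoded by ARHGAP31. The genes were taken by symbol as CXCL1, CXCL2, CXCL3, CXCL5, CXCL6, CXCL8, CXCL16, CX3CL1, CCL2 and CCL20. All 10 were found among the 64253 genes of each count table, and all 10 were among the 16439 genes with enough reads to be tested. They had been picked with the difference between the groups already known, so no p is given for them, and whether a member passed the calling rule used for all genes is a description of its values and not evidence for the difference.

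PC-3 is an established human cell line derived from a prostate cancer metastasis. Each of 6 bulk RNA-seq libraries gave 1 count of reads per gene, from 3 samples with a short hairpin RNA against CdGAP (shCdGAP) and 3 samples with a scrambled control hairpin (shCon). Both hairpins were delivered by lentivirus. The methods describe the shCdGAP PC-3 cells as puromycin-selected clones grown from single cells, do not say so of the control cells, and do not name the clone that was sequenced, so the effects of the hairpin and of clonal selection cannot be told apart. The question put to these samples was which genes change when CdGAP is depleted.

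Chemokines are small secreted proteins that draw cells along a gradient through G-protein-coupled receptors. The CXC ligands that carry an ELR motif (CXCL1, CXCL2, CXCL3, CXCL5, CXCL6 and CXCL8) bind CXCR2, and CXCL6 and CXCL8 also bind CXCR1. They attract neutrophils and promote blood vessel growth, and their genes lie side by side on chromosome 4. CCL2 attracts monocytes through CCR2, CCL20 attracts CCR6-bearing lymphocytes and dendritic cells, and CXCL16 and CX3CL1 are made as membrane-bound proteins that proteases release.

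The promoters of the CXC ligands are shown first, because neighbouring genes with closely related promoters differed in opposite directions between the groups. RefSeq promoter sequences were at hand for 7 of the 10 genes, with CXCL16, CX3CL1 and CCL2 lacking an entry. Each sequence runs 5′ to 3′ on the coding strand from base -140 to base -11 relative to the RefSeq start, on GRCh38.p14, and the windows of CXCL2, CXCL3, CXCL5, CXCL6 and CXCL8 reach into the gene spans of the count tables, whose gene models start further upstream. Capitals mark GGAATTTCC, a kappaB-type motif, and in CXCL8 also TGACTCA, which matches the AP-1 motif TGANTCA.
CXCL1 (chr4:73869253-73869382, plus strand): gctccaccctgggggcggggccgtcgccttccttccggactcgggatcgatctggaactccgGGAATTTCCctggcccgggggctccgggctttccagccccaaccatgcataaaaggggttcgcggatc
CXCL2 (chr4:74099206-74099335, minus strand): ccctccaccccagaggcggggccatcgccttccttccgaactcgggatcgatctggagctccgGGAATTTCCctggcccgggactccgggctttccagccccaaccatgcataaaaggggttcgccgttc
CXCL3 (chr4:74038700-74038829, minus strand): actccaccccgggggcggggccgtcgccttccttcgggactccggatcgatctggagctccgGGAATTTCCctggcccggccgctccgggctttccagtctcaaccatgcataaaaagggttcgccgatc
CXCL5 (chr4:73998688-73998817, minus strand): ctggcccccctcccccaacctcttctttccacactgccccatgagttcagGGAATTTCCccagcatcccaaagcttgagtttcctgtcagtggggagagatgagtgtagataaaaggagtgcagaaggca
CXCL6 (chr4:73836538-73836667, plus strand): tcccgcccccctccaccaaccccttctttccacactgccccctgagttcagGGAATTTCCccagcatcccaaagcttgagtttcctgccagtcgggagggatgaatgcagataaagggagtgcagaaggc
CXCL8 (chr4:73740429-73740558, plus strand): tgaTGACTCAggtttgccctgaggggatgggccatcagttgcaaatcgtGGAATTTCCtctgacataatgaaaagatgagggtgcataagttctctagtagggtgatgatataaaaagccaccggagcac
CCL20 (chr2:227813702-227813831, plus strand): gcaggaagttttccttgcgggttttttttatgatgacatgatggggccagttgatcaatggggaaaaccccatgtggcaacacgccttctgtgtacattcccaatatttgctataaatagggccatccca

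GGAATTTCC was present once on the coding strand in each of the 6 CXC promoters. Its first base lay at -78 in CXCL1, -77 in CXCL2, -78 in CXCL3, -90 in CXCL5, -89 in CXCL6 and -91 in CXCL8. On either strand the motif occurred in 162 of 35116 RefSeq promoters of 300 bases, which is 0.461%. This exact sequence was not among the letters of the CCL20 window. Other forms of the kappaB motif were not searched for, so their absence from CCL20 is not shown. TGANTCA, which reads the same on both strands, was present in CXCL8 at -137 and in no other of the 7 promoters, against 7.71% of all promoters. TATAAA was present in CXCL8 at -31 and in CCL20 at -29 (11.5% of all promoters), and CXCL1, CXCL2 and CXCL3 had CATAAA at -31 (10.6% of all promoters). Over the 250 bases before the start, CXCL5 and CXCL6 were 85.26% identical, CXCL1 and CXCL3 81.4%, CXCL2 and CXCL3 73.41%, and CXCL8 was the most distant, with 43.86% to 47.92% identity to the other CXC promoters. A match describes the letters and was not tested as a binding site.

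The libraries held 34011175 to 43154039 counted reads each in the shCdGAP group and 33182796 to 42786971 each in the shCon group. ARHGAP31 itself (chromosome 3) had 1072, 1181 and 926 reads in shCdGAP replicates 1 to 3 and 2472, 2557 and 1923 in shCon, a log2 fold change of -1.14 (SE 0.0409, edgeR adjusted p = 8.75e-08). Replicate 2 of shCdGAP stood apart: per degree of freedom, the chi-square between its counts and those of replicates 1 and 3 was 24.1 and 29.6, against 2.99 between replicates 1 and 3 and 2.43 to 6.31 among shCon libraries. Values without it are therefore given below. Of the lineage markers, PTPRC of leukocytes had at most 1 read in any library and CD3E of T cells had none. The 8 leukocyte markers summed to 1.69 to 1.81 counts scaled to a common library size (CPM) in shCdGAP and 1.10 to 1.63 CPM in shCon. The 2 of them that were tested went in opposite directions. CD68 had 55, 49 and 42 reads in shCdGAP against 16, 19 and 14, and LYZ 4, 3 and 1 against 15, 27 and 26. The 5 endothelial markers summed to 5.94 to 13.2 CPM in shCdGAP and 10.2 to 11.9 CPM in shCon. The 6 epithelial markers summed to 1118 to 1459 CPM and 935 to 958 CPM. Of these, EPCAM (log2 fold change 1.35) and KRT19 (1.04) were called higher and none lower, with CDH1 at -0.72. Of the 6 prostate luminal markers, 5 had at most 3 reads in every library and KLK2, KLK3 and FOLH1 had none. The 6 fibroblast markers summed to 350 to 366 CPM and 303 to 309 CPM. Of the 5 tested, 4 (COL1A1, COL3A1, PDGFRA and PDGFRB) were called higher in shCdGAP, against 8.56% of all genes. The fifth, COL1A2, had a log2 fold change of -0.04. The part of the fibroblast markers in the chemokine differences was not tested.

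CCL2 and CXCL8 were the members with the largest positive differences, and CXCL5 and CCL20 those with the largest negative ones. A gene was called when its adjusted p was under 0.01 and its absolute log2 fold change above 1. By that rule 6 of the 10 members were called, 4 higher and 2 lower in shCdGAP. Of all 16439 genes tested, 12.8% were called, 8.56% higher and 4.19% lower. The libraries of the 2 groups did not overlap for 8 of the 10 members, and for 67.1% of all tested genes. The median log2 fold change was 0.79 over the members and 0.01 over all genes. Because the members were chosen with these differences known, nothing is read from these counts.

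**Figure D1:**
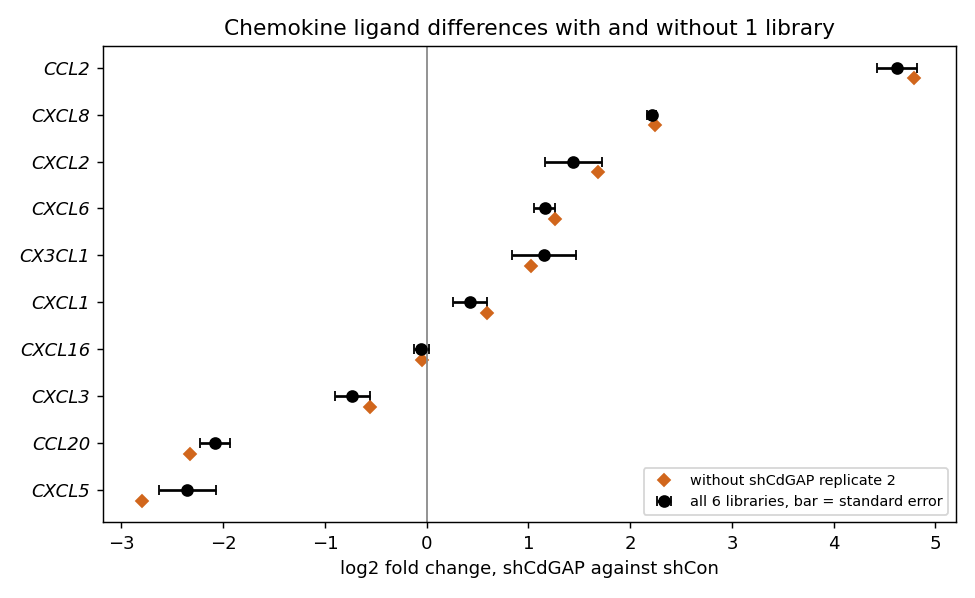
Log2 fold change of each of the 10 chemokine mRNAs in shCdGAP against shCon PC-3 cells (horizontal axis), with black points and standard error bars from all 6 libraries and orange diamonds from the fit without shCdGAP replicate 2. Differences run from -2.35 for CXCL5 to 4.62 for CCL2, and no sign changes when that library is left out.

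CXCL8 (ENSG00000169429, chromosome 4 from 73740506 to 73743716), the prototype neutrophil attractant also known as IL-8, had 1702, 1549 and 1666 CPM in shCdGAP replicates 1, 2 and 3 and 349, 366 and 347 CPM in shCon. Every shCdGAP library was far above every shCon library, and the spread within each group was small. The means were 1639 ± 79.9 and 354 ± 10.1 CPM (SD, n = 3), a 4.63-fold difference, with a log2 fold change of 2.21 (SE 0.0461). These values rest on 57292 to 69046 reads in each shCdGAP library and 11488 to 15440 in each shCon library, the most of any member in shCdGAP. The log2 fold change stayed between 2.17 and 2.24 over 14 alternative settings and the gene was called in all 14.

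CXCL6 (ENSG00000124875, chromosome 4 from 73836497 to 73849064), a ligand of CXCR1 and CXCR2, had 681, 522 and 676 CPM in shCdGAP and 274, 291 and 276 CPM in shCon. The groups did not overlap, and shCdGAP replicate 2 was the lowest of its group. The means of 626 ± 90.1 and 281 ± 9.04 CPM (SD, n = 3) differed 2.23-fold, with a log2 fold change of 1.16 (SE 0.0997). It was called in 13 of 14 alternative settings and was lost when tested against a log2 fold change of 1.

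CXCL1 (ENSG00000163739, chromosome 4 from 73869393 to 73871242), a growth-regulated CXCR2 ligand, had 1030, 684 and 1052 CPM in shCdGAP and 690, 701 and 674 CPM in shCon. The groups overlapped: replicates 1 and 3 of shCdGAP were above all shCon libraries and replicate 2 lay among them. The log2 fold change was 0.42 (SE 0.166) with all libraries and 0.59 without shCdGAP replicate 2, and the gene was called in no setting.

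CXCL2 (ENSG00000081041, chromosome 4 from 74097035 to 74099293), a close relative of CXCL1, had 80.7, 41.8 and 80.1 CPM in shCdGAP and 25.3, 25.3 and 23.7 CPM in shCon. All shCdGAP libraries were above all shCon libraries, with replicate 2 between the shCon libraries and the others of its group. The means of 67.5 ± 22.3 and 24.8 ± 0.939 CPM (SD, n = 3) gave a log2 fold change of 1.44 (SE 0.278). With the replicate number as a block it was 1.39 and CXCL2 was not called, the only gene of those listed here whose call the block changed. CXCL2 was called in only 6 of 14 alternative settings. The call was lost with no filter on low counts, when tested against a log2 fold change of 1, without shCdGAP replicate 1 (1.28), without shCdGAP replicate 3 (1.29) and without any 1 of the shCon libraries (at most 1.45), and was kept at 1.68 without shCdGAP replicate 2.

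CXCL3 (ENSG00000163734, chromosome 4 from 74036589 to 74038807), which lies 60 kb from CXCL2 and binds the same receptor, was on the other side. Its libraries had 31.1, 20.1 and 32.5 CPM in shCdGAP and 47.0, 47.7 and 43.98 CPM in shCon, without overlap. The means were 27.9 ± 6.77 and 46.2 ± 1.98 CPM (SD, n = 3), with a log2 fold change of -0.73 (SE 0.172). CXCL3 was called in no setting, and not without the fold limit either. Here replicate 2 of shCdGAP was the farthest from shCon, and the log2 fold change without it was -0.55.

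CXCL5 (ENSG00000163735, chromosome 4 from 73995642 to 73998779), a neutrophil attractant of epithelial cells, had 6.04, 13.0 and 6.92 CPM in shCdGAP and 44.7, 45.4 and 43.8 CPM in shCon. The groups were far apart, and replicate 2 was the highest of the low group. The means of 8.66 ± 3.81 and 44.6 ± 0.806 CPM (SD, n = 3) correspond to a 5.15-fold lower level, with a log2 fold change of -2.35 (SE 0.278), or -2.80 without shCdGAP replicate 2. It was called in 13 of 14 settings.

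CCL2 (ENSG00000108691, chromosome 17 from 34255218 to 34257203), the monocyte attractant also known as MCP-1, had 555, 376 and 575 CPM in shCdGAP and 19.5, 20.8 and 20.9 CPM in shCon. It showed the largest difference of the members, and the lowest shCdGAP library remained far above the highest shCon library. The means of 502 ± 109 and 20.4 ± 0.791 CPM (SD, n = 3) differed 24.6-fold, with a log2 fold change of 4.62 (SE 0.194) that ranged from 4.50 to 4.78 over the alternative settings. In reads these were 22504, 16400 and 19787 against 818, 877 and 692.

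CCL20 (ENSG00000115009, chromosome 2 from 227813842 to 227817564), the ligand of CCR6, had 7.84, 12.5 and 8.84 CPM in shCdGAP and 40.8, 41.9 and 41.3 CPM in shCon. The shCon libraries lay close together, the shCdGAP libraries were spread more widely below them, and the groups did not overlap. The means were 9.72 ± 2.44 and 41.3 ± 0.555 CPM (SD, n = 3), a 4.25-fold lower level, and the log2 fold change was -2.08 (SE 0.149), or -2.32 without shCdGAP replicate 2. CCL2 and CCL20 were each called in all 14 settings, in opposite directions.

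The ligands with a membrane-bound form differed little or were near the lower end of detection. CXCL16 (ENSG00000161921, chromosome 17 from 4733526 to 4739922) had 11.9, 12.2 and 13.2 CPM in shCdGAP and 12.0, 13.2 and 13.5 CPM in shCon, and its groups overlapped (log2 fold change -0.05, SE 0.0745). CX3CL1 (ENSG00000006210, chromosome 16 from 57372458 to 57385048), or fractalkine, had 20, 36 and 30 reads in shCdGAP and 13, 11 and 14 in shCon. Its groups did not overlap, at 0.730 ± 0.207 and 0.331 ± 0.0836 CPM (SD, n = 3). The log2 fold change of 1.15 (SE 0.311) was not called, but was called in 3 of 14 settings, namely without a filter on low counts, without shCdGAP replicate 1 (1.36) and without shCdGAP replicate 2 (1.03).

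Levels of different chemokines were compared per length, as CPM per kilobase of exon (RPKM). In bulk RNA, a change in the share of cells that express a gene and a change in RNA per cell cannot be told apart. In shCon the order of mean RPKM was CXCL1 (531), CXCL8 (156), CXCL6 (129), CCL20 (30.8), CXCL3 (20.8), CXCL5 (17.6), CXCL2 (16.5), CCL2 (10.3), CXCL16 (4.61) and CX3CL1 (0.0554), and no neighbours in that order overlapped between libraries. In shCdGAP the order was CXCL8 (721), CXCL1 (711), CXCL6 (287), CCL2 (253), CXCL2 (45.0), CXCL3 (12.6), CCL20 (7.24), CXCL16 (4.45), CXCL5 (3.41) and CX3CL1 (0.122). The libraries of CXCL8 and CXCL1 overlapped there, as did those of CXCL6 and CCL2, of CXCL3 and CCL20, and of CXCL16 and CXCL5, so these neighbours are not separated. CCL2 moved from the eighth to the fourth place, and CCL20 from the fourth to the seventh.

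**Figure D2:**
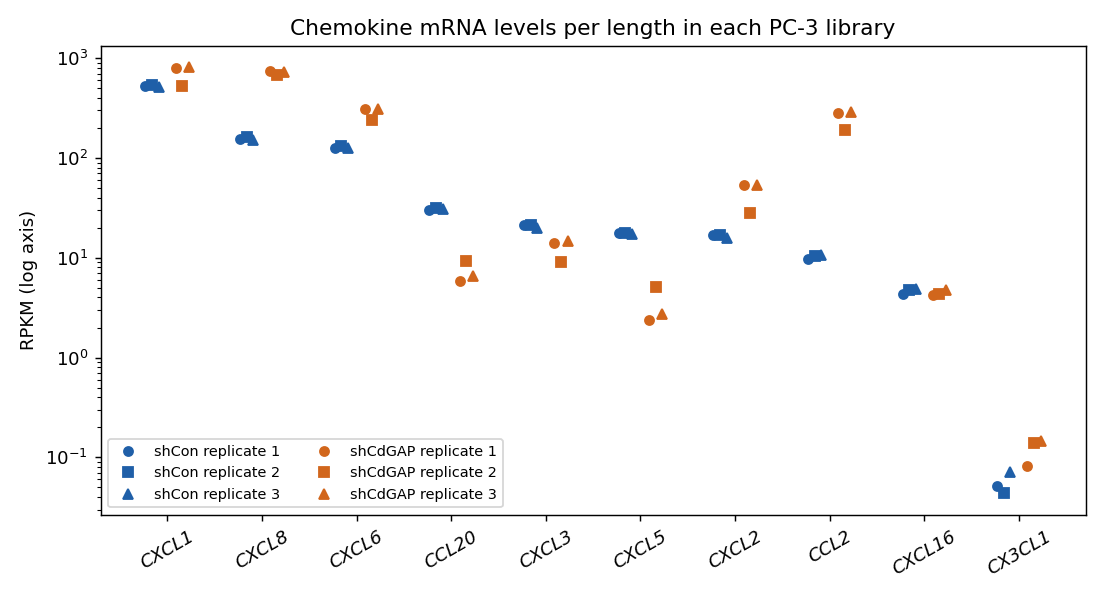
RPKM (log axis) of each chemokine mRNA in every PC-3 library, ordered by the shCon mean, with shCon libraries in blue, shCdGAP libraries in orange and replicates 1, 2 and 3 as circles, squares and triangles. CCL2 lies near 10.3 in shCon and 253 in shCdGAP, CCL20 and CXCL5 lie lower in shCdGAP, and the square of shCdGAP replicate 2 sits nearer to shCon than its group for CXCL1, CXCL2, CXCL5, CXCL6, CXCL8, CCL2 and CCL20.

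Summed over the 10 members, the level was 2045 ± 304 RPKM in shCdGAP and 916 ± 19.9 RPKM in shCon (SD, n = 3). The members accounted for 0.323% to 0.411% of the scaled reads of a library in the shCdGAP group and for 0.149% to 0.155% in the shCon group. The make-up of this sum also differed. CXCL1 made up 58.0% ± 0.361 of it in shCon and 34.5% ± 2.91 in shCdGAP, while CXCL8 made up 17.0% ± 0.159 and 35.6% ± 3.99 (SD, n = 3). CCL2 went from 1.12% ± 0.0485 in shCon to 12.3% ± 0.960 in shCdGAP. CXCL6 held 14.0% in both groups, and the ELR ligands together held 95.0% in shCon and 87.1% in shCdGAP. Ranges of these shares did not overlap between groups, apart from that of CXCL6.

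Pairs of closely related genes were set against each other within each library, where the scaling to library size cancels. The RPKM ratio of CXCL6 to CXCL5, whose promoters are the most alike of the set and whose starts lie 159 kb apart, was 131, 46.6 and 114 in shCdGAP replicates 1, 2 and 3 and 7.13, 7.46 and 7.34 in shCon. That of CXCL2 to CXCL3 was 3.83, 3.07 and 3.65 against 0.799, 0.785 and 0.798. Both ratios were higher in every shCdGAP library, so the order of CXCL2 and CXCL3 was inverted between the groups. The ratio of CXCL8 to CXCL1 was 0.942, 1.29 and 0.903 in shCdGAP and 0.288, 0.297 and 0.294 in shCon, and that of CXCL1 to CXCL3 was 56.7, 58.1 and 55.4 against 25.1, 25.1 and 26.2. The last ratio was as stable in shCdGAP replicate 2 as in the other libraries, although both genes were low there. CCL2 to CCL20 had the largest shift, from 0.323, 0.335 and 0.343 in shCon to 47.9, 20.4 and 44.02 in shCdGAP.

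**Figure D3:**
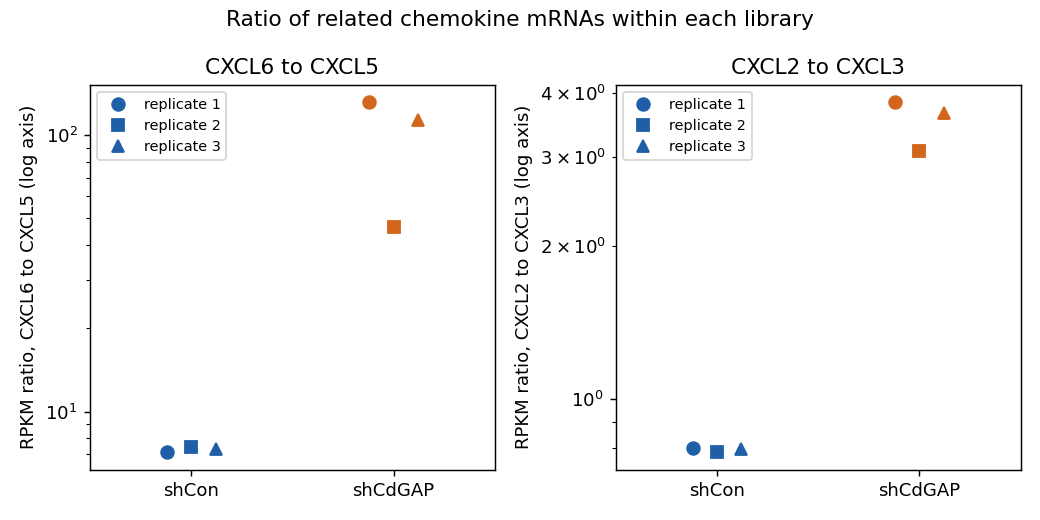
RPKM ratio (log axes) of CXCL6 to CXCL5 on the left and of CXCL2 to CXCL3 on the right in the 3 shCon (blue) and 3 shCdGAP (orange) libraries, with replicates 1, 2 and 3 as circles, squares and triangles. The shCon libraries lie within 7.13 to 7.46 and 0.785 to 0.799, below all shCdGAP libraries, which start at 46.6 and 3.07.

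Because these genes are paralogs, reads can be shared between them. Of the distinct 50-base stretches of their transcripts in GENCODE v44, 13.4% of those of CXCL2 also occurred in another gene (139 in CXCL3 and 60 in CXCL1), as did 6.01% for CXCL3, 4.57% for CXCL1 and 2.31% for CXCL6. For CXCL5 the figure was 12.7%, shared with ENSG00000287037 and GLYR1 and with no other chemokine. CXCL8, CCL2 and CCL20 shared none. Reads with several alignments were not counted, so CXCL2 and CXCL3 may be measured on part of their length. Transcripts and not genome positions were compared, so a stretch that CXCL5 shares with ENSG00000287037 need not align to a second place. Whether CXCL5 lost reads in this way was not tested.

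Within the shCdGAP group the position of replicate 2 was a feature of most members. It was the library nearest to shCon for 7 of the 10, against 1 for replicate 1 and 2 for replicate 3. Over the 2096 called genes it was the nearest for 42.0%, with 27.4% and 30.6% for the others. On the log2 scale, it was below the mean of the other shCdGAP libraries by a difference of -0.94 for CXCL2, -0.66 for CXCL3, -0.61 for CXCL1, -0.59 for CCL2, -0.38 for CXCL6 and -0.12 for CXCL8, and above it by 1.01 for CXCL5 and 0.58 for CCL20. CXCL8 was the least affected of these. The part of this library's other differences in these values was not tested.

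The genes with the most similar profile over the 6 libraries were found for 3 members, by the Euclidean distance of log2 CPM centred on the shCon mean. Nearest to CXCL8 were IGFBP3 (0.166), SPOCK1 (0.172) and TCF7 (0.183). Nearest to CCL2 was HSPB8 (0.330). The next by rank, KRT38 and PALD1, had 0 CPM in shCon, so their distance is set by the prior count added before the logarithm and describes no likeness to CCL2. Nearest to CCL20 were PCGF5 (0.251), MISP (0.256) and KCNG3 (0.279). The distances describe likeness over 6 libraries that fall into 2 groups.

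The CXC members on chromosome 4 span 357 kb, and the tested genes from 1 Mb below CXCL8 to 1 Mb above CXCL2 (72740506 to 75097035) were examined with them. Of 47 genes in that window 19 were tested, 6 members and 13 others. Of the 13 others 5 were called higher, against 8.56% of all genes, and none was called lower (none at an unadjusted p under 0.05 by edgeR, and none by DESeq2). EPGN, which encodes the epidermal growth factor (EGF) family ligand epigen, went from 0.199 ± 0.0509 to 9.90 ± 1.75 CPM (log2 fold change 5.63, SE 0.232, edgeR adjusted p = 1.73e-07). PARM1, a prostate androgen-regulated mucin-like protein, went from 4.0 ± 0.0224 to 42.2 ± 7.73 CPM (3.40, SE 0.150, adjusted p = 7.93e-07). AFP, alpha-fetoprotein, rose by 3.15 (SE 0.204, adjusted p = 2.43e-06) and RASSF6 by 1.90 (SE 0.0564, adjusted p = 3.51e-08). The unnamed gene ENSG00000269559 rose by 1.92 (SE 0.400) and lost its call without shCon replicate 1 or 2. It and EPGN had fewer than 10 reads in each shCon library. Both reached the reads needed for testing through shCdGAP alone and could only come out higher, so no p is given for them.

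The remaining neighbours differed less. MTHFD2L (log2 fold change 0.87, adjusted p = 1.26e-06) and the EGF family ligand genes BTC (0.77, adjusted p = 0.000224), EREG (0.73, adjusted p = 0.00248) and AREG (0.40, adjusted p = 0.000973) passed the p threshold of edgeR's test below the fold limit. COX18 (0.08, adjusted p = 0.108), ANKRD17 (0.11, adjusted p = 0.0501), ANKRD17-DT (0.34, adjusted p = 0.338) and the pseudogene HMGA1P2 (0.25, adjusted p = 0.642) did not. CXCL5 and CXCL3 were the only tested genes of the window with a negative log2 fold change. The median over all 630 tested genes of chromosome 4 was -0.06.

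**Figure D4:**
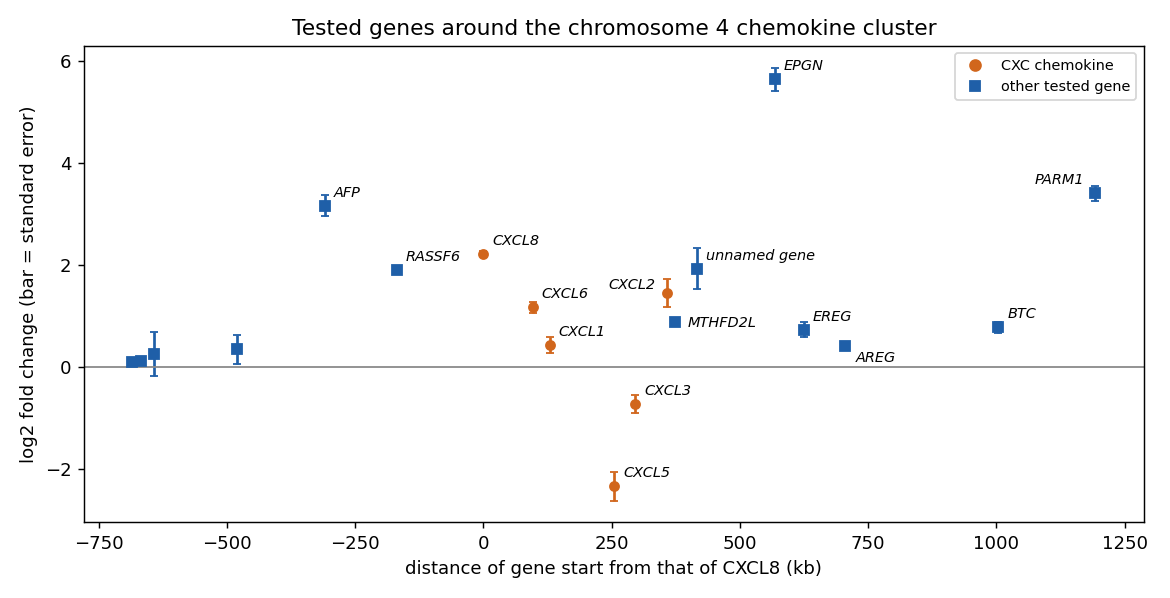
Log2 fold change in shCdGAP against shCon (vertical axis, bars are standard errors) of the 19 tested genes in the chromosome 4 window, against the distance in kb of each gene's lowest coordinate from that of CXCL8. The 6 CXC chemokines (orange circles) range from -2.35 to 2.21 within 357 kb, while all 13 other genes (blue squares) lie above 0.

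The chemokine ligands outside the 10 were mostly silent. Of 36 other ligand genes in the tables, 20 had no read in any library, 28 had at most 3 reads in each library, and 6 were tested. CCL7, a monocyte attractant whose gene starts 15 kb from CCL2, had 126, 138 and 99 reads in shCdGAP and 0, 0 and 1 in shCon, which is at least 39.2-fold higher against a floor of 3 reads per library. CCL26, an eosinophil attractant, rose from 1.51 ± 0.0992 to 5.87 ± 0.384 CPM (log2 fold change 1.96, SE 0.118, edgeR adjusted p = 1.64e-06). CXCL9, an interferon-induced ligand of CXCR3, fell from 25, 26 and 25 reads to 5, 4 and 4 (-2.53, SE 0.297). CCL7 reached the reads needed for testing through shCdGAP alone and CXCL9 through shCon alone. Each could only come out in that direction, so no p is given for them.

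The other tested ligands were not called. CCL28, a mucosal chemokine, went from 4.74 ± 0.194 to 8.43 ± 0.801 CPM without overlap, below the fold limit (log2 fold change 0.83, SE 0.0996, edgeR adjusted p = 0.000106). CXCL10 and CXCL11, which share the receptor of CXCL9, had overlapping groups (-0.21, adjusted p = 0.405, and -0.14, adjusted p = 0.399). Thus 2 ligands of the 6 were called higher and 1 lower, against 8.56% and 4.19% of all genes. The median was 0.35 over the list and 0.01 over all genes. CXCL12 and CCL5 had at most 1 read in any library.

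The main signalling receptors of the members were not detected in these cells. CXCR1, CXCR2, CCR6, CXCR6 and CX3CR1 had no read in any library, and CCR2 had 1 read in all. Of 23 receptor genes 11 had no read and 5 were tested. ACKR3, an atypical receptor that takes up CXCL12, rose from 21, 29 and 39 reads to 72, 122 and 60 (log2 fold change 1.46, SE 0.317, edgeR adjusted p = 0.00384). CCR10, the receptor of CCL28, rose from 17, 15 and 6 reads to 30, 52 and 27 (1.495, SE 0.323, adjusted p = 0.00349). Neither call was stable at this depth: ACKR3 was lost without shCon replicate 1 (adjusted p = 0.0175) or 2 (0.0216), and CCR10 without shCon replicate 2 (0.0139) or 3 (0.0139). CCRL2, an atypical chemokine-binding receptor, had a log2 fold change of 0.34 (adjusted p = 0.0140) and ACKR2 of -0.16 (adjusted p = 0.677). CXCR4, the receptor of CXCL12, had 33, 133 and 24 reads in shCdGAP and 54, 63 and 38 in shCon, and its log2 fold change was 0.24 (adjusted p = 0.734) with all libraries but -0.80 (adjusted p = 0.00303) without shCdGAP replicate 2. No receptor was called lower, and none had an unadjusted p under 0.05 in that direction by edgeR or was called lower by DESeq2.

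Transcription factors linked to kappaB and AP-1 motifs were examined together with regulators of NF-kappaB, as a list of 24 genes, all tested. ATF3, a stress-induced bZIP factor, was the 1 gene called, rising from 3.78 ± 0.342 to 8.73 ± 0.368 CPM (log2 fold change 1.21, SE 0.0988, edgeR adjusted p = 1.00e-05). Of all genes, 8.56% were called higher and 4.19% lower. None of the 24 was called lower by edgeR or by DESeq2, although 5 had an unadjusted p under 0.05 in that direction in edgeR. Without the fold limit 9 were higher and 4 lower, against 24.1% and 22% of all genes, and the median was 0.15. Named after their values were seen, NFKBIA, the inhibitor IkappaB-alpha, had 203 ± 22.9 CPM in shCdGAP and 347 ± 6.15 in shCon (log2 fold change -0.78, adjusted p = 4.30e-05), JUN, an AP-1 subunit, a log2 fold change of 0.83 (adjusted p = 2.97e-07), and RELA, an activating subunit of NF-kappaB, one of 0.04 with overlapping groups. Other regulators of NF-kappaB went in both directions, with TNFAIP3 at 0.87 (edgeR adjusted p = 2.50e-06) and BCL3 at -0.82 (edgeR adjusted p = 5.55e-05).

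Receptors and cytokines that feed into chemokine transcription made up a list of 28 genes, of which 23 were tested. Among them 7 were called higher, against 8.56% of all genes. None was called lower by edgeR or by DESeq2 (6 had an unadjusted p under 0.05 in that direction in edgeR), and the median was 0.19. Without the fold limit 9 were higher and 5 lower, against 24.1% and 22% of all genes. The latter 5 (named after their values were seen) were TLR4 (-0.97), TRAF2 (-0.87), TNFRSF1A (-0.75), MYD88 (-0.71) and IL1RAP (-0.58), with edgeR adjusted p of 1.30e-06 to 9.60e-05. TLR4 and TRAF2 lie on chromosome 9, where the median over all tested genes was -0.42, and its part in their values was not tested. Without shCdGAP replicate 2 the calls were 6 higher and 1 lower, TLR4 at -1.05. IL1RN, the interleukin-1 receptor antagonist, rose by 2.42 (SE 0.334) and IL1R2, the decoy receptor, by 2.34 (SE 0.376). TLR3, a sensor of double-stranded RNA, rose by 2.07 (SE 0.380, edgeR adjusted p = 0.00139). These 3 had at most 45 reads in any library. IL1RN and IL1R2 had fewer than 10 reads in each shCon library. Both reached the reads needed for testing through shCdGAP alone and could only come out higher, so no p is given for them. The other called genes were TLR5, IL1R1, TLR2 and IL1A, of which all but TLR2 had at most 140 reads in any library. IL1A was called at 1.24 (adjusted p = 0.00616), but at 0.81 without shCdGAP replicate 2 it was below the fold limit, and without any 1 of the shCon libraries its adjusted p was 0.0224 to 0.0263. IL1R1 also lost its call without shCon replicate 2 (adjusted p = 0.01003).

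IL1B, named after its values were seen because interleukin-1 induces several of the members, had 4213, 10023 and 3385 reads in shCdGAP and 4105, 4216 and 3194 in shCon. Replicate 2 alone was high, in the library where CXCL1, CXCL2 and CCL2 were lowest among shCdGAP, and the groups overlapped (log2 fold change 0.56, edgeR adjusted p = 0.258). The part of IL1B in the chemokine values of that library was not tested. TNF and IL6 had at most 12 reads in any library.

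Proteins that control the stability of chemokine mRNAs were a list of 11 genes, all tested, and neither edgeR nor DESeq2 called any of them. By the same rule edgeR called 12.8% of all genes. At an unadjusted p under 0.05, 2 were higher and 6 lower. Without the fold limit the same number, 6, were lower and none higher, against 22% and 24.1% of all genes, and the median was -0.21. The lowest, ZC3H12A, which encodes the ribonuclease regnase-1 and is named after its value was seen, had 136 ± 8.83 CPM in shCdGAP and 217 ± 1.03 in shCon (log2 fold change -0.67, SE 0.0480, edgeR adjusted p = 4.53e-06).

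Sheddases, peptidases and proteoglycans, which release, trim or hold chemokines, showed the most calls of the lists. Of 18 genes 16 were tested, with a median of 0.90. Of these, 8 were called higher and 2 lower, against 8.56% and 4.19% of all genes. MMP2, a gelatinase that cleaves CCL7, had 2523, 4049 and 2079 reads in shCdGAP and none in shCon, at least 924-fold higher. It was not called without a filter on low counts. FAP, a serine protease of activated fibroblasts, had 22, 19 and 26 reads against 0, 0 and 1, at least 7.44-fold higher. MMP1, an interstitial collagenase, rose from 1.83 ± 0.0410 to 17.3 ± 1.54 CPM (log2 fold change 3.24, SE 0.100, edgeR adjusted p = 4.08e-08).

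The cell surface proteoglycans GPC4 (-2.10, SE 0.146, edgeR adjusted p = 1.63e-05) and GPC6 (-1.54, SE 0.0664, adjusted p = 2.26e-07) fell, and GPC6 lies on chromosome 13, where the median over all tested genes was -0.99. ADAM10 and ADAM17, named outside the rule as the sheddases of CX3CL1 and CXCL16, were below the fold limit at -0.26 (adjusted p = 0.00145) and -0.46 (adjusted p = 8.65e-05).

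**Figure D5:**
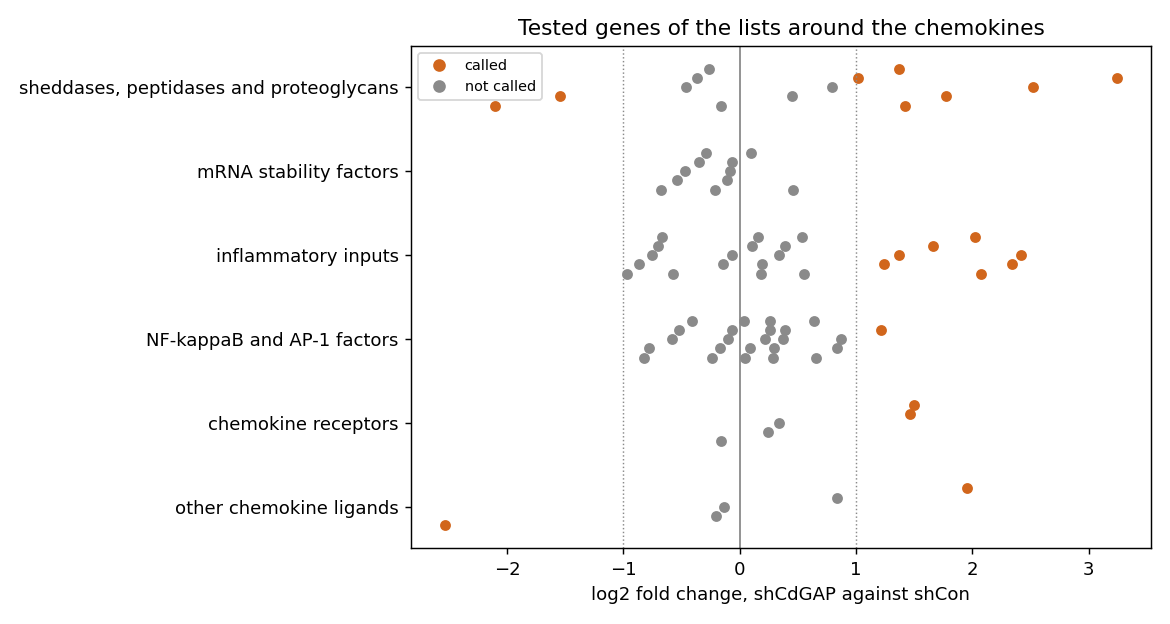
Log2 fold change in shCdGAP against shCon (horizontal axis) of the tested genes in 6 lists, 1 point per gene with called genes in orange, others in grey and dotted lines at the fold limit; heights within a row only separate points. CCL7, MMP2 and FAP are left out because they had at most 3 reads in each shCon library. The mRNA stability factors have no called gene, and called genes of the inflammatory inputs all lie to the right.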

How the data were processed

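RNA was measured in 3 shCdGAP and 3 shCon samples of PC-3 cells, described in the methods as independent samples. The authors deposited 1 table of raw read counts per sample. STAR 2.5.1b (alignment to GRCh38) and featureCounts 1.4.6 are named in the labels and methods, with a single-read kit, whereas the file headers name featureCounts 1.6.0, Ensembl release 77 and strand-specific counting of read pairs. The tables hold 64253 genes, of which 32955 had no read, and 87.3% matched a symbol.

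The members and gene lists were chosen with earlier results of these data known. The main test was edgeR's quasi-likelihood test (edgeR 4.0.16 in R 4.3.3, robust, without a block) on TMM-normalized counts of the 16439 genes that filterByExpr kept, with Benjamini-Hochberg adjustment; adjusted p in the text is from this test unless DESeq2 1.42.0 is named. The standard error (SE) is that of the log2 fold change, as its size over the root of the F statistic. Members' p-values are not given. CPM are counts scaled by TMM-adjusted library size (factors 0.987 to 1.01) and RPKM divide these by the exon length of the table. For likeness a prior count of 2 was added. Exact permutation of 3 against 3 libraries was not used, as it could not pass the threshold. Named genes were all members, every tested ligand, receptor and chromosome 4 window gene, and in longer lists the 3 highest and 3 lowest called genes; others are marked. Promoters came from a RefSeq table (GRCh38.p14) and were scanned on both strands with Python 3.11.15.

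Replicate numbers come from the sample titles. Same-numbered samples of the groups deviated together (r = 0.122, 0.124 and 0.113 over genes), while differently numbered samples had r of -0.203 to 0.106. Each same-number r was over 0.1, but so was that of shCdGAP replicate 3 with shCon replicate 1 (0.106). Whether the numbers pair the samples is therefore not settled. The main fit ignored them, and the block was run as an alternative. The other alternatives were RLE and upper-quartile scaling, DESeq2, no filter or at least 10 reads in every library, no fold limit, glmTreat against a log2 fold change of 1, and each library left out in turn. The main edgeR fit was tested on simulated counts first. Total counted reads of 33182796 to 43154039 per library set the precision. Within a group correlations between libraries were at least 0.992, and between groups at most 0.956.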

Additional observations from a re-analysis of the deposited data

How the results depend on the processing

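All 130 values of the members under the alternatives kept their sign. Of 1275 values of other listed genes, 25 dropped below the threshold, 1 rose above it, 3 changed sign and 1246 stayed the same. The sign changes were in genes that were not called: with 1 library left out at a time CXCR4 ranged from -0.80 (without shCdGAP replicate 2) to 0.56, HMGA1P2 from -0.13 (without shCdGAP replicate 2) to 0.57 and IKBKB from -0.0099 (without shCdGAP replicate 3) to 0.084. The replicate block gave 2048 calls over all genes against 2096, of which 2010 were shared, and left 5 members called by losing CXCL2 (log2 fold change 1.39), with no other call changed among the listed genes. Without the fold limit the calls went from 2096 to 7587 over all genes, from 1 to 13 for the kappaB and AP-1 factors, from 7 to 14 for the inflammatory inputs, from 0 to 6 for the mRNA stability factors and from 5 to 9 for the chromosome 4 neighbours. With glmTreat they were 998 over all genes, 3 of 10 members, 0 receptors, 0 kappaB and AP-1 factors and 2 inflammatory inputs. With at least 10 reads in every library fewer genes were tested. Called then were 1 other ligand, 1 receptor, 4 inflammatory inputs, 7 sheddases and related genes and 3 chromosome 4 neighbours.

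Leaving out 1 library at a time gave 1872 to 2369 calls over all genes, 5 to 7 members, 3 other ligands, 0 to 2 receptors, 1 of the kappaB and AP-1 factors, 5 to 7 inflammatory inputs, 0 stability factors, 9 to 10 sheddases and related genes and 4 to 5 chromosome 4 neighbours. For the receptors the count was 1 without shCon replicate 1, 0 without shCon replicate 2 and 1 without shCon replicate 3. The cause of these changes was not tested. Precision is limited for genes with few reads, such as CX3CL1, CCR10 and IL1R2, and by 3 samples per group, 1 hairpin and an unnamed clone.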
